A study of Danio rerio with 8 samples.

Results

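Described here are 10 zebrafish long non-coding RNA (lncRNA) loci of the study that carry the names of developmental transcription factors. These 10 are a chosen list and not every such locus. They were taken by their locus identifiers from the deposited catalogue on the Zv9 build, and they are 10 of its 1014 loci. They hold 16 of its 1425 transcript models and 34 of its 4540 exon records, and carry the names of 9 genes. Models of the same locus lay on the same strand of the same chromosome or scaffold. Among the 10 loci, all models listed together at a locus shared exon bases with each other. The study behind the catalogue sequenced ribosome-protected RNA fragments from whole wild-type embryos (TL/AB strains) and prepared 1 library at each of 8 developmental stages. The stages ran through embryos of 2 to 4 cells, 256 cells and the stage labelled 1K cell, through Dome, Shield and Bud, to 28 hours and 5 days after fertilization. No footprint value per library was analysed here, so nothing below says at which stage a locus was transcribed or met by ribosomes, and the depth is unknown. The values are exon positions, and none of them has a replicate.

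The namesake genes encode DNA-binding transcription factors. Homeodomain proteins (meis1b, msx1a, pou3f3b) and nuclear receptors (nr2f1a, nr2f2, nr4a1) make up most of the set, and the remainder are a forkhead protein (foxp2), a Notch-responsive repressor of the hairy family (her4.2) and an HMG-box protein (sox4a). Intergenic lncRNAs found in zebrafish embryos are commonly named after a nearby protein-coding gene, so such a name describes a neighbourhood and not a function. Genes that control development often lie in gene-poor stretches of the genome that are rich in distant enhancers and in non-coding transcripts. Whether each locus lies beside its namesake on the Zv9 build was not examined, since no annotation of coding genes on that build was used here.

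All 10 loci had at least 1 model of the linc- annotation, whose identifiers hold the gene name. The 16 models comprised 12 linc- models and 4 models with the Zv9_ prefix, which come from another embryonic annotation, per the authors' deposited description. In 8 loci the name was a current RefSeq symbol. In the other 2 it was an older symbol, meis1 for meis1b and msxe for msx1a, and each matched 1 gene of the RefSeq table of the GRCz12tu assembly. No other locus of the catalogue carried the name of any of the 9 genes. For their families, the search took names with foxp, her, meis, msx, nr2f, nr4a, pou3f or sox followed by a digit. Such names were found at 2 further loci, named after sox3 and pou3f1. Symbols with a letter in that place, such as msxe, could not be found this way. The 10 loci lay on 8 chromosomes, 5 on the plus strand and 5 on the minus strand.

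**Figure D1:**
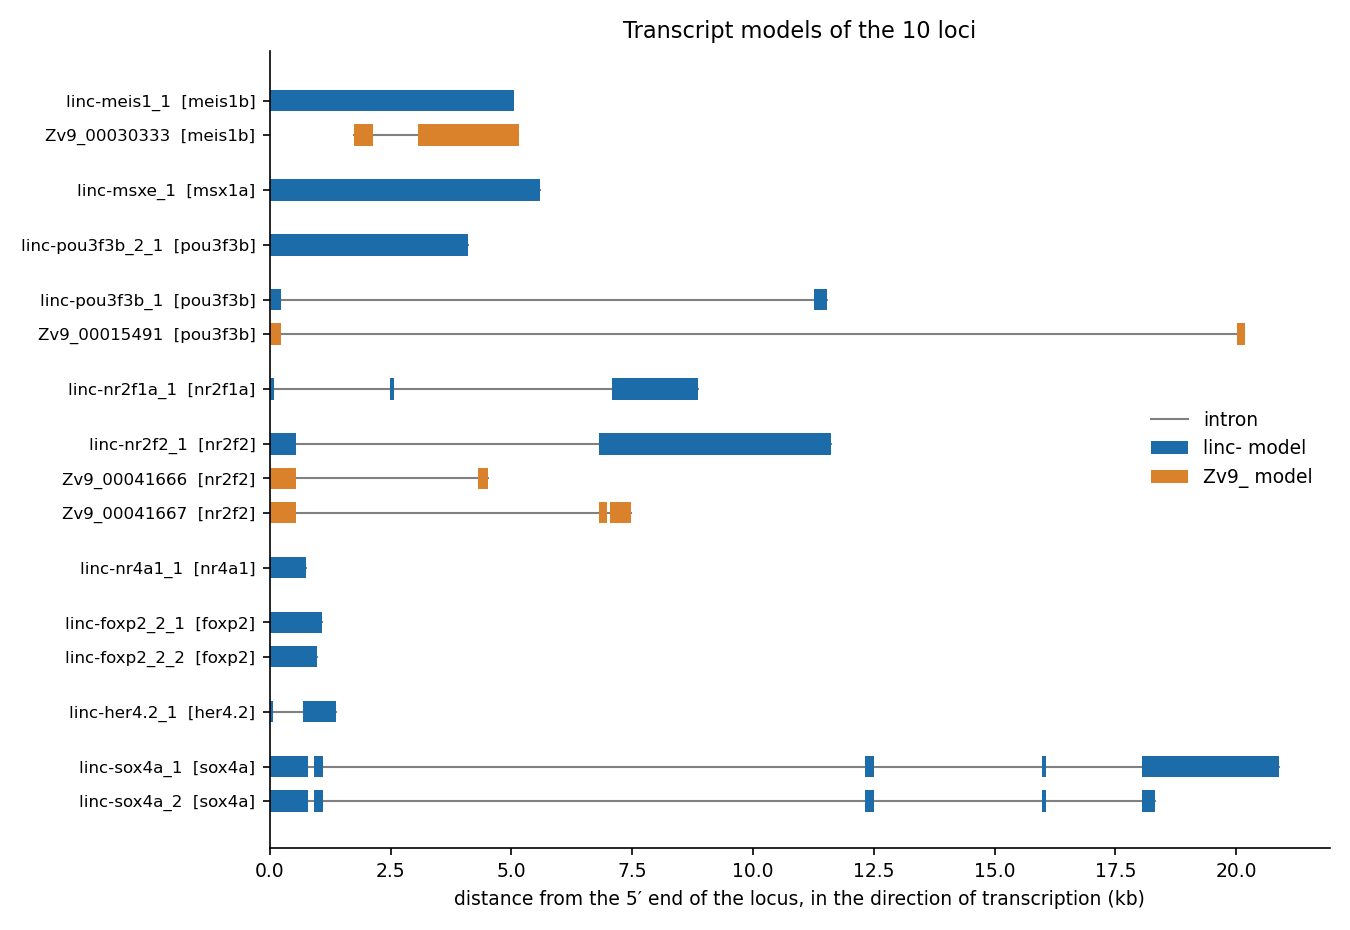
Each row is 1 transcript model, named at the left with the namesake gene in brackets; bars are exons, lines are introns, and the x axis is the distance in kb from the 5′ end of the locus along the direction of transcription. Blue bars are linc- models and orange bars are Zv9_ models. The linc- models of meis1, msxe and the downstream pou3f3b locus are unbroken exons of over 4000 nt, whereas the sox4a and upstream pou3f3b loci are the widest, at 20894 and 20174 bp.

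Among the homeodomain names, the longest model was most often 1 unspliced exon. Meis1 proteins bind DNA together with Hox and Pbx proteins and are known for their part in patterning the zebrafish hindbrain. The meis1b locus, XLOC_002640, lay on the plus strand of chromosome 13, between 5245604 and 5250749, and held 2 models. The model linc-meis1_1 was a single exon of 5042 nt. The model Zv9_00030333 had exons of 394 and 2077 nt, 2471 nt in all, joined over an intron of 926 bp. Its 5′ end lay 1749 nt downstream of that of linc-meis1_1, and its 3′ end lay 104 nt beyond. Because linc-meis1_1 ran without a break across this stretch, the whole intron of Zv9_00030333 lay inside its exon, and the locus appears in the catalogue as spliced and as unspliced over the same bases. The models shared 2367 exon bases, which is 95.8% of Zv9_00030333 and 46.9% of linc-meis1_1. A single-exon linc- model that holds a whole intron of another model was found at 13 loci of the catalogue, of which meis1b was the only one among the 10.

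Msx proteins are homeodomain repressors known from the dorsal neural tube, the neural crest and the fin fold. The msx1a locus, XLOC_003504, lay near the start of chromosome 14, from 176793 to 182388 on the minus strand. Its only model, linc-msxe_1, was an unspliced exon of 5596 nt. It was the longest model of the 10 loci and longer than the longest model at 95.8% of all loci. The 1 locus closer to that chromosome's start was XLOC_003220.

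Pou3f3, known in the mouse as Brn1, is a POU-domain factor of the developing brain. The name pou3f3b stood at 2 loci of chromosome 6, both on the minus strand and 305.8 kb apart with 0 catalogue loci between them. The downstream one, XLOC_013752, lay from 14538090 to 14542184 with the unspliced model linc-pou3f3b_2_1 of 4095 nt. The upstream one, XLOC_013753, lay from 14848000 to 14868173 and was built otherwise. Its model linc-pou3f3b_1 joined exons of 221 and 285 nt over an intron of 11016 bp, and Zv9_00015491 joined exons of 237 and 146 nt over an intron of 19791 bp. These models used the same splice donor at the end of the first exon and different last exons, 8636 nt apart at their 3′ ends. Their 5′ ends differed by 16 nt. The model linc-pou3f3b_1, at 506 nt, was the shortest to stand for any of the 10 loci, and exons made up 4.39% of its span. The loci that share this name thus differed widely in exon content, since XLOC_013752 was exon over 100% of its span. The longest models of the foxp2, meis1b, msx1a and nr4a1 loci were also exon over 100% of their span.

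The loci named after nuclear receptors ranged from an unspliced 748 nt to a spliced 5342 nt. Nr2f1a and nr2f2 encode COUP transcription factors. Nr2f1a is needed for atrial identity in the zebrafish heart, and the mouse counterpart of nr2f2 is known for its part in venous identity. The nr2f1a locus, XLOC_013156, lay on the minus strand of chromosome 5, between 51517030 and 51525886. Its only model, linc-nr2f1a_1, had 3 exons of 94, 83 and 1768 nt in the order of transcription, with introns of 2385 and 4527 bp. The last exon held 90.9% of its 1945 nt.

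The nr2f2 locus, XLOC_005692, lay on the plus strand of chromosome 18, between 23661116 and 23672731, and had the most models of the set, 3. All 3 shared the splice donor of the first exon, at 23661658, and their 5′ ends lay within 1 nt. After this exon they parted. Zv9_00041666 went on to an exon of 204 nt after an intron of 3771 bp. Zv9_00041667 and linc-nr2f2_1 skipped that exon and shared an intron of 6273 bp. In linc-nr2f2_1 the second exon was then 4800 nt long and ran to the end of the locus. In Zv9_00041667 it was 153 nt long, followed by an intron of 63 bp and a last exon of 451 nt. That intron lay wholly inside the second exon of linc-nr2f2_1. It was the only one of the 18 introns of the 10 loci, counted in every transcript, below 100 bp. In the catalogue 226 of 3115 introns were that short. The spliced lengths were 5342 nt for linc-nr2f2_1, 1147 nt for Zv9_00041667 and 747 nt for Zv9_00041666. Of Zv9_00041667, 99.9% of the exon bases also belonged to linc-nr2f2_1, but they made up 21.5% of that model.

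Nr4a1 encodes an orphan nuclear receptor known as an immediate-early gene, one that is induced rapidly by a stimulus. Its locus, XLOC_009895, lay on the minus strand of chromosome 23, between 32401013 and 32401760. The model linc-nr4a1_1 was an unspliced exon of 748 nt. This was the narrowest of the 10 loci, and 3.45% of all loci spanned less.

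The remaining 3 loci differed as widely. Foxp2 encodes a forkhead factor known in humans and songbirds for its part in speech and vocal learning. The foxp2 locus, XLOC_011739, lay on the plus strand of chromosome 4, between 6028219 and 6029301. It held unspliced models of 1083 nt (linc-foxp2_2_1) and 969 nt (linc-foxp2_2_2) with the same 5′ end, and the shorter lay wholly inside the longer, ending 114 nt earlier. Her4.2 encodes a basic helix-loop-helix repressor that responds to Notch in neural progenitors. In the RefSeq order of genes on GRCz12tu it stands in a tandem group, next to her4.1 and her12 and followed by her4.3 and her4.4. Which of these genes lies nearest to the locus of that name on Zv9 was not examined. The her4.2 locus, XLOC_009527, lay on the plus strand of chromosome 23, between 21767244 and 21768616. The only model, linc-her4.2_1, joined exons of 65 and 695 nt over an intron of 613 bp. Sox4a encodes an HMG-box factor whose mouse counterpart is known from differentiating neurons. The sox4a locus, XLOC_006268, lay on the plus strand of chromosome 19, between 29288190 and 29309083, and was the widest of the set, at 20894 bp. It held 2 models of 5 exons with all 4 introns in common, of 107, 11226, 3468 and 1989 bp in order. The first 4 exons measured 797, 187, 197 and 85 nt in both. The models parted at the end of the last exon, which was 2838 nt in linc-sox4a_1 and 258 nt in linc-sox4a_2, giving 4104 and 1524 nt in all.

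The 10 longest models ranged from 506 to 5596 nt. The models of the upstream pou3f3b locus, nr4a1, her4.2 and foxp2 measured 506 to 1083 nt. That of nr2f1a measured 1945 nt, and 5 measured 4095 to 5596 nt (pou3f3b downstream, sox4a, meis1b, nr2f2 and msx1a). The median of the 10 was 3020 nt, against 1163 nt over all loci and 1720 nt over the 429 loci with a linc- model. This median falls between the values of nr2f1a and the downstream pou3f3b locus, and with any 1 locus left out it became 1945 or 4095 nt. With every transcript counted it was 1335.5 nt over 16 models, against 1105 nt over all models. Models above 4000 nt stood for 5 of the 10 loci (50%), against 10.3% of all loci and 20.5% of those with a linc- model. No test was run on these shares, because loci of a list chosen by name are not replicates, and the catalogue values are given for scale. The limit of 4000 nt was not varied, and the models of the downstream pou3f3b locus and sox4a lay just above it, at 4095 and 4104 nt.

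**Figure D2:**
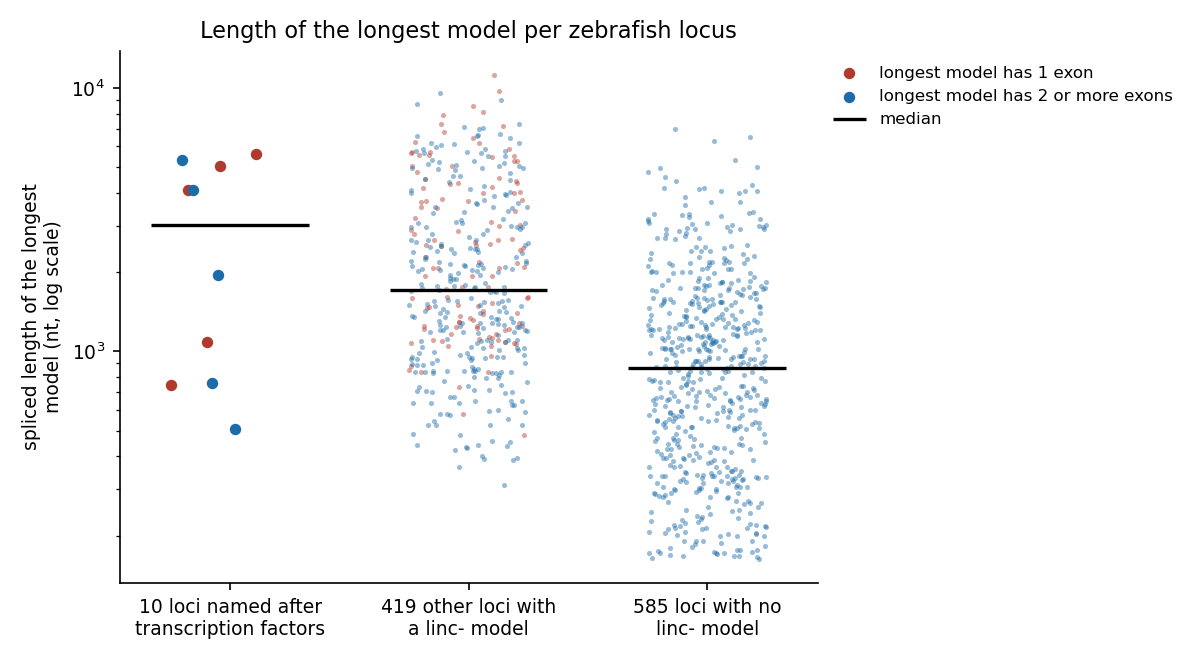
Each point is 1 locus, placed at the spliced length of its longest model in nt on a log axis, for the 10 loci named after transcription factors, the other loci with a linc- model and the loci without one; black lines are medians, and horizontal scatter within a column has no meaning. Red points are longest models of 1 exon and blue points have 2 or more; among the 10 loci both kinds of model are found below 1945 nt and at 4095 nt or above.

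Unspliced models were found at both ends of this range. The longest model was a single exon at 5 of the 10 loci, of 748, 1083, 4095, 5042 and 5596 nt. The corresponding share was 12.4% of all loci (126) and 29.4% of loci with a linc- model, and all 126 such loci had a linc- model. The mean number of exons was 1.90 ± 1.29 (SD, n = 10 loci), against 3.04 ± 2.24 over all loci (SD, n = 1014). Over loci with a linc- model it was 3.45 ± 3.10 (SD, n = 429). Longest models of 3 or more exons stood for nr2f1a and sox4a alone, 20.0% of the set. They stood for 46.2% of all loci and 52.7% of those with a linc- model. The median span was 5371 bp, against 6800 bp over all loci and 6055 bp over those with a linc- model. Spans of the 10 loci ran from 748 bp at nr4a1 to 20894 bp at sox4a.

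Where the longest model was spliced, its last exon held most of the length. In all 5 such loci the last exon was the longest, as it was in 73.3% of the 888 multi-exon loci of the catalogue. Among the 303 of these with a linc- model the share was 79.2%. The last exon held 56.3% of the length in pou3f3b (upstream), 69.2% in sox4a, 89.9% in nr2f2, 90.9% in nr2f1a and 91.4% in her4.2. The catalogue median was 61.6%, and that of multi-exon loci with a linc- model was 61.0%. Among the longest models, only those of nr2f1a and sox4a had internal exons. In these the last exon was 18.2-fold the median internal exon (median of 2 loci). The ratio was 5.36-fold over the 468 catalogue loci whose longest model had internal exons, and 6.61-fold over the 226 of them with a linc- model. With every transcript counted, Zv9_00041667 at nr2f2 included, it was 9.06-fold (4 transcripts), against 4.72-fold over the catalogue. The shorter spliced models of these and the other loci varied more. The last exon held 16.9% of linc-sox4a_2, 27.3% of Zv9_00041666 and 39.3% of Zv9_00041667 (both at nr2f2), 38.1% of Zv9_00015491 at the upstream pou3f3b locus and 84.1% of Zv9_00030333 at meis1b. The first intron was not the longest in the longest models of nr2f1a and sox4a, and it was the longest in 34.2% of the same 468 catalogue loci.

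Several models were listed at 5 of the 10 loci, against 24.8% of all loci. At 3 of these (meis1b, nr2f2 and the upstream pou3f3b locus) linc- and Zv9_ models had been merged, which is 30.0% of the 10 loci. This was so at 22 loci in the whole catalogue, 2.17% of all loci and 5.13% of those with a linc- model. The sources shared an intron at nr2f2 and a splice donor at pou3f3b. At meis1b they could share no splice site, because linc-meis1_1 is unspliced. In the catalogue 7 of the 22 loci shared an intron between sources and 10 shared a splice site. A locus where either source gave unspliced models alone could not enter these counts.

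At 4 of the 5 loci with several transcripts, the 3′ ends differed more than the 5′ ends, as at most such loci of the catalogue. The outermost 5′ ends lay 0 nt apart at foxp2 and sox4a, 1 nt at nr2f2, 16 nt at pou3f3b and 1749 nt at meis1b. The outermost 3′ ends lay 114 nt apart at foxp2, 2580 nt at sox4a, 7098 nt at nr2f2, 8636 nt at pou3f3b and 104 nt at meis1b. Thus 4 of the 5 loci had 5′ ends within 20 nt of each other, and meis1b was the exception in which the 5′ ends differed more. Among all 251 loci with several transcripts, 5′ ends lay within 20 nt at 43.8% and 3′ ends spread wider than 5′ ends at 56.6%. Among the 97 of these with a linc- model the shares were 47.4% and 66.0%. The limit of 20 nt was chosen after the values had been seen. How the 3′ ends of either annotation were set is not stated in the sources at hand, and its part in these differences was not tested.

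**Figure D3:**
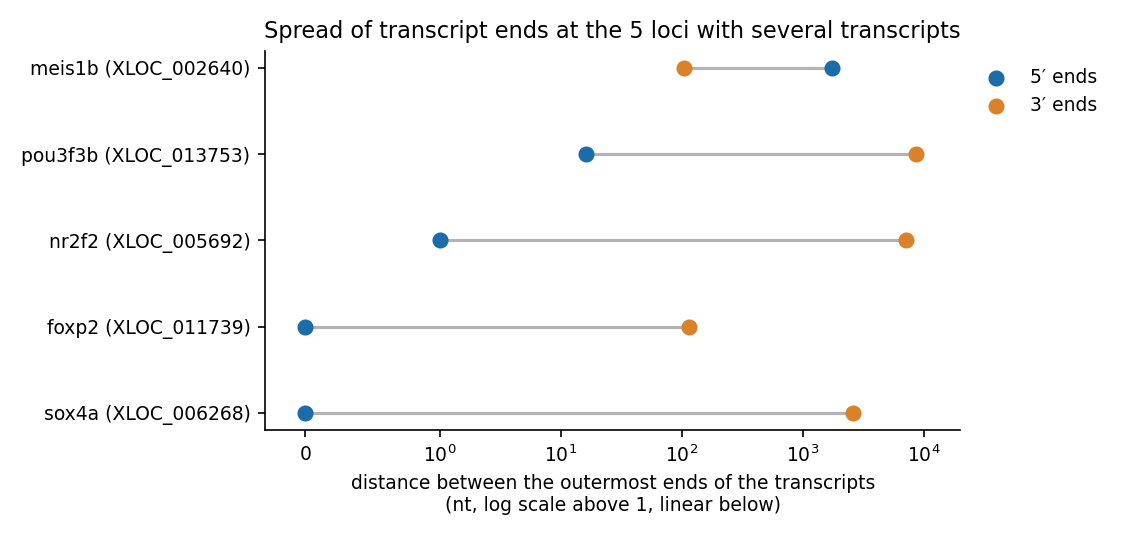
For each of the 5 loci with several transcripts, the points give the distance in nt between the outermost 5′ ends (blue) and between the outermost 3′ ends (orange) of its transcripts, on an axis that is logarithmic above 1 nt. At 4 loci the 5′ ends lie 0 to 16 nt apart and the 3′ ends 114 to 8636 nt apart; at meis1b the order is turned, with 1749 and 104 nt.

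The 10 loci overlapped no other catalogue locus and had none within 10 kb, yet 5 of them had a neighbour within 50 kb. None overlapped another locus, where 47 of 1014 loci (4.64%) did. None had one within 10 kb, where 9.27% of all loci did, overlapping loci included. Both shares are below 10%, so finding none among 10 loci is close to them. The gap to the nearest other locus was 10.6 kb at nr2f1a, 22.1 kb at sox4a, 31.2 kb at nr4a1, 38.0 kb at foxp2 and 43.5 kb at nr2f2. It was 154.3 kb at msx1a, 304.8 kb at the downstream and 305.8 kb at the upstream pou3f3b locus, 307.1 kb at her4.2 and 924.4 kb at meis1b. A neighbour within 50 kb was therefore present at 5 of 10 loci (50%), against 172 of 1014 (17.0%). The median gap was 98.9 kb, against 373.3 kb over the 992 loci that share their chromosome or scaffold with another locus. With any 1 locus left out it was 43.5 or 154.3 kb. With the limit of 10 kb the share was thus below that of the catalogue but near it, and with the limit of 50 kb it was above.

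In 4 of these 5 cases the neighbour lay upstream on the opposite strand, so that the loci were transcribed away from each other. XLOC_012651, with 1 Zv9_ model of 2 exons and 2175 nt, lay 10.6 kb upstream of the nr2f1a locus. XLOC_006610, with 2 Zv9_ models over 102141 bp, lay 22.1 kb upstream of the sox4a locus. XLOC_009606, with 1 Zv9_ model of 893 nt, lay 31.2 kb upstream of nr4a1, and XLOC_005954, with 2 Zv9_ models over 150224 bp, lay 43.5 kb upstream of nr2f2. All 3 loci named after nuclear receptors thus had such a divergent neighbour. The fifth neighbour, XLOC_011741 at 38.0 kb from foxp2, lay downstream on the same strand. All 5 neighbours were described by the Zv9_ annotation alone, so this trait did not set the divergent ones apart. Loci without a linc- model were common in the catalogue, where 429 of 1014 loci had one. In the catalogue, 125 loci had their nearest other locus within 50 kb without overlap, and 26 of them (20.8%) diverged from it, 34 converged with it and 65 shared its strand. Orientation within 50 kb was looked at after the gaps had been seen, both loci of a close pair can enter the catalogue count, and no test was made.

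**Figure D4:**
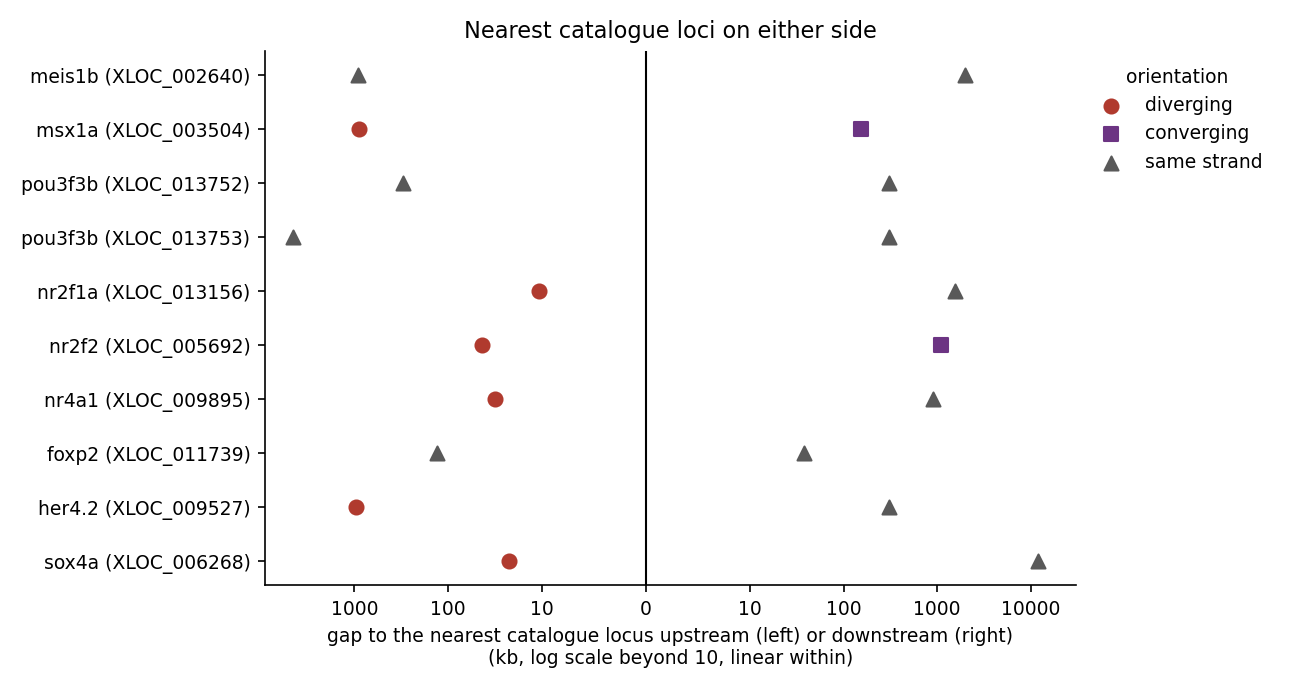
For each of the 10 loci, the points give the gap in kb to the nearest catalogue locus upstream (left of 0) and downstream (right of 0), on an axis that is logarithmic beyond 10 kb; red circles diverge from the locus, purple squares converge with it and grey triangles share its strand. The 4 closest red circles, at 10.6 to 43.5 kb, belong to nr2f1a, sox4a, nr4a1 and nr2f2.

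The gap on the other side of each locus, by definition the wider one, ran from 130.7 kb at foxp2 to 11837 kb at sox4a. Downstream of sox4a the next locus, XLOC_006329, lay 11837 kb off, and 1 of the 943 gaps between adjacent loci analysed here was wider. Upstream of the pou3f3b pair the next locus, linc-utp6_1 at XLOC_013766, lay 4518 kb off, and 45 gaps were wider. The median of the 943 gaps was 836.4 kb, but it takes in nearer and wider sides alike and is no measure for wider sides alone. The number of other loci within 1 Mb ranged from 1 to 4, with a median of 2 against 1 over all loci.

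The names of those adjacent loci were set beside the order of protein-coding genes in the RefSeq table, which describes another assembly and was used for names and order only. Downstream of the nr2f2 locus the next locus carried the name of chd2, a chromatin remodeller. The gap between these lncRNA loci was 1101 kb on Zv9, and it is no distance between the genes. In RefSeq 2 coding genes (lysmd4 and rgma) stood between the genes nr2f2 and chd2. Of the remaining names, loc100333296 beside msx1a was not matched to 1 gene. In the others 20 coding genes stood between her4.2 and dpm1, 30 between nr4a1 and zgc:112481, and 153 between pou3f3b and utp6. Of the 54 coding genes within 3 places of the 9 namesakes, 1 (chd2) gave its name to a catalogue locus. The same share over all coding genes of RefSeq is not given here, so this count cannot be called low or high.

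Relatives of sox4a and pou3f3b gave their names to 1 locus each, sox3 and pou3f1. The sox3 locus, XLOC_003684, lay on chromosome 14 from 33693090 to 33696501 with 1 model of 2 exons and 581 nt. The pou3f1 locus, XLOC_004898, lay on chromosome 16 from 35880663 to 35905996 with 1 model of 4 exons and 835 nt over 25334 bp. Each had fewer exon bases than the downstream pou3f3b locus and sox4a (4095 and 4104 nt). The upstream pou3f3b locus, with 668 exon bases over both its models, lay between the sox3 and pou3f1 loci in this measure.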

How the data were processed

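Footprint libraries (1 for each of 8 stages) gave no values used here, and no column of such values (0) was left aside. The deposited values are exon coordinates (first and last base, counted from 1) of zebrafish models. Per the authors' deposited description, linc- and Zv9_ models of earlier annotations were combined with RefSeq transcripts of the same loci; the merging tool is not stated in the sources at hand. The build is Zv9 (danRer7), and Bowtie2, TopHat2 and bedtools are named, per the submitters' processing notes. Mouse models, whose names hold no gene symbols, were not used.

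Exons of each model were ordered by strand, and each locus was represented by its longest spliced transcript. A gap is the number of bases between the outer edges of loci. The steps that order exons and measure gaps were tested on simulated data. The members, measures and the rule for named genes (all members, their nearest loci, loci of the same families by name, and RefSeq genes within 3 places of each namesake) were chosen with earlier results of these data known. No significance test was run. Alternatives counted every transcript, merged exons, took linc- models or loci alone, or changed the definition of neighbour, gap or span. The tools were numpy 2.4.6, scipy 1.17.1, pandas 2.3.3 and matplotlib 3.10.9 under Python 3.11.15.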

Additional observations from a re-analysis of the deposited data

How the results depend on the processing

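No paired analysis was possible because each stage had 1 library and none gave values. Lengths, exon numbers, introns and spans kept their side of the catalogue value under every setting run, but with every transcript counted the median length was 1335.5 nt, or 230.5 nt above the catalogue in place of 1857 nt. The median intron length, over the 5 loci whose longest model was spliced, was 3456 bp, against 2473.5 bp over the catalogue. This excess ran from 578 bp with the exons of a locus merged to 1703 bp beside loci with a linc- model only. Counting every transcript took the last-to-internal exon ratio to 9.06 (4.34 above the catalogue) and the excess of single-exon models to 25.7 percentage points. That excess was 20.2 points with linc- models only and 20.6 points beside loci with a linc- model only. A neighbour limit of 50 kb turned the share with a neighbour to 50%, or 33.04 points above the catalogue in place of 9.27 below it. With neighbours on the same strand only, the median gap was 910.1 kb, or 101.7 kb above the catalogue, whose median rose to 808.4 kb. The lower median gap of the 10 loci therefore depended on counting neighbours of both strands. At foxp2, her4.2, meis1b and both pou3f3b loci the nearest locus was on the same strand. With each locus left out in turn, a step chosen after seeing the data, the median length ran from 1945 to 4095 nt and the median gap from 43.5 to 154.3 kb. Leaving out members that overlap another locus was not run, since none does.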
